A study of Mus musculus with 4 samples.

Results

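The endoplasmic reticulum (ER) chaperones and the genes of the unfolded protein response (UPR) were followed across all conditions of a B16F10 melanoma study. The 10 genes were chosen by name, with earlier results of these data known: Hspa5, Hsp90b1, Pdia4, Calr, Canx, Dnajb9, Sdf2l1, Herpud1, Edem1 and Xbp1. All 10 had a row among the 24527 gene symbols of the read count table, and all 10 were among the 12728 genes with a mean level of 1 CPM (counts scaled to library size) or more, which serve as the background here. B16F10 is a mouse melanoma line, and NIH/3T3 is a mouse fibroblast line. The study sequenced 4 conditions, with 1 library each: B16F10 in 2D monoculture, B16F10 sorted from 2D co-culture with NIH/3T3 cells, B16F10 sorted from B16F10–NIH/3T3 spheroids grown in hanging drops, and B16F10 tumors grown under the skin of year-old female C57BL/6 mice. All samples carry the wild-type label, and per the methods of the study a B16F10 line with a green fluorescent protein was used for sorting. The tumor library is labelled as frozen tumor, whereas the design text and the methods describe sorted cells. The methods mention replicate RNA isolations, and whether a library is 1 sample or a pool of several is not known here. With 1 library per condition no replicate error exists, so no p-value is given, and every interval is a 95% interval that covers counting error only. The 2D conditions are called monoculture and co-culture from here on, and spheroids and tumors each stand for 1 library.

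Proteins that enter the secretory pathway fold in the ER. Chaperones hold unfolded chains, lectin chaperones read their sugars, disulfide isomerases join their cysteines, and chains that fail are pulled back to the cytosol and degraded. When unfolded chains build up, the sensors IRE1, PERK and ATF6 start the UPR: IRE1 splices the Xbp1 mRNA, ATF6 is cut to a transcription factor, and PERK slows translation and favours ATF4. The protein XBP1 and ATF6 are known to bind ER stress response elements in the promoters of chaperone genes. Gene-level counts do not separate spliced from unspliced Xbp1 mRNA.

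Promoter letters were read from RefSeq windows of build GRCm38.p6, which reach from 250 bases before to 50 bases after the start of the transcript, and all 10 genes had a window. The ER stress response element, searched as CCAAT and CCACG with 9 bases between them on either strand, was in the windows of 4 of the 10 genes (Hspa5, Hsp90b1, Calr and Canx), against 0.119% of 32851 windows. The second form, ATTGG and CCACG with 1 base between them, was in the Herpud1 window and in 0.0365% of all windows. The first element is known from promoters of chaperone genes, so its matches in these were foreseen and are no result of the libraries. The stretches with either form are shown because the 5 genes that carry them had unlike profiles. Capitals mark the fixed letters of the motifs, and in Herpud1 also those of TGATGNAA, a motif bound by ATF4, on the other strand.

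Hspa5 (chr2:34772020-34772048, + strand): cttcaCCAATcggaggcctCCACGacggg
Hsp90b1 (chr10:86705513-86705676, - strand): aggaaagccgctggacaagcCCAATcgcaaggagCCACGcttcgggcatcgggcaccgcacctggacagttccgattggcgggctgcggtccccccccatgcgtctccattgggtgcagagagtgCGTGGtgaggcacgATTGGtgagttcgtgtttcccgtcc
Calr (chr8:84847055-84847113, - strand): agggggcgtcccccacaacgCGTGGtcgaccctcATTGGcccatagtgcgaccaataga
Canx (chr11:50325780-50325838, - strand): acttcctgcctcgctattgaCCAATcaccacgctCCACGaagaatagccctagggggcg
Herpud1 (chr8:94386297-94386407, + strand): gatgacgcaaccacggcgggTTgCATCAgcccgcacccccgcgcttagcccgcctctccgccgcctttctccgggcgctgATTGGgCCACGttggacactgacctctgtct

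The element lay 65 to 47 bases before the start in Hspa5 and 145 to 127 bases before it in Canx. The start is that of the RefSeq window. In Hspa5 the gene span given below, from another annotation, begins upstream of it, so the printed stretch lies inside that span. Hsp90b1 held it at 2 places, once on each strand. No exact match to any of these motifs or to TGACGTGG, a motif bound by XBP1 and ATF6, was found in the windows of Xbp1, Dnajb9, Sdf2l1, Pdia4 and Edem1, which says only that these letters are not in those windows. TGATGNAA was in 3.97% and TGACGTGG in 0.676% of all windows.

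Library totals lay between 118896900 and 150028663 counted reads. Counts were scaled to CPM with TMM factors. The 10 genes had between 8010 and 355322 reads in a library, and the counting interval of a ratio between libraries was 0.014 to 0.086 wide on the log2 scale. Of 50 such ratios, over 5 comparisons of libraries, only that of Xbp1 between tumor and monoculture had an interval that holds 0. The melanocyte markers (8 of 8 with at least 1 CPM in every library) summed to between 11420 and 20120 CPM. The labelled cell type was thus seen in each library. Fibroblast markers summed to 17.6 CPM in monoculture, 36.5 CPM in spheroids, 679 CPM in co-culture and 2728 CPM in tumors. Markers of other host cells were highest in tumors: myeloid markers summed to 1479 CPM there and at most 29.9 CPM in the cultures, endothelial markers to 229 CPM and at most 0.411 CPM, skeletal muscle markers to 4599 CPM and at most 12.4 CPM, adipocyte markers to 216 CPM and at most 0.448 CPM. The markers of plasma and B cells, which make much ER, summed to 22.3 CPM in tumors and at most 2.01 CPM in the cultures, where Tnfrsf17 and Pou2af1 were at 0.

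The 10 genes had unlike profiles. A set of 5 genes, Xbp1, Herpud1, Dnajb9, Sdf2l1 and Edem1, were highest in spheroids, next in co-culture, then in monoculture and lowest in tumors. Of all 12728 genes 34.7% were highest in spheroids and 15.0% had this whole order. The 3 abundant folding factors Hsp90b1, Pdia4 and Canx were lowest in spheroids, as were 30.8% of all genes, and 2 others, Hspa5 and Calr, were highest in co-culture, as were 15.8%. The tumor had the lowest level of 7 of the 10 genes, against 39.6% of all genes, and of 5 genes with total counts. With DESeq2, total count, upper quartile or filtered TMM scaling, Xbp1 was higher in tumors than in monoculture and 4 genes had the order given above. With GC content and length removed, that is, after the median ratio of genes alike in both was taken off, 2 genes, Dnajb9 and Edem1, kept it, since Sdf2l1 was lower in spheroids than in co-culture (log2 ratio -0.08) and Herpud1 (0.05) and Xbp1 (0.35) were higher in tumors than in monoculture. With the same step Hspa5 was higher in spheroids than in co-culture (log2 ratio 0.16), whereas Calr stayed lower (-0.59). In bulk RNA, fewer cells of a type and less RNA per cell cannot be told apart.

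**Figure D1:**
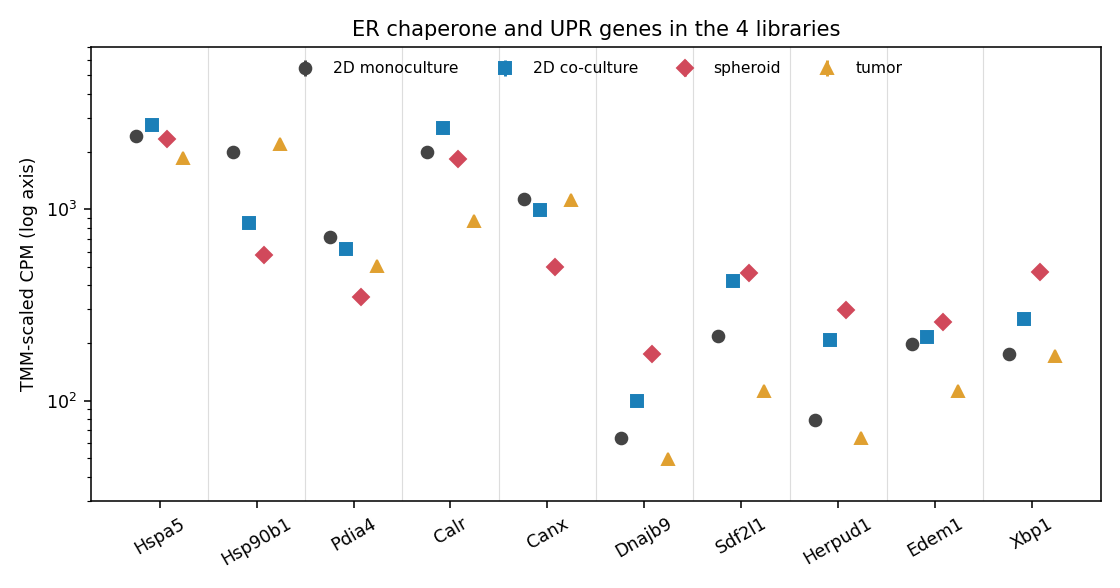
Level of each of the 10 genes (TMM-scaled CPM, log axis) in the 4 libraries, 1 point per library, with 95% counting intervals that are smaller than the points. The folding factors on the left reach their lowest point in spheroids or the tumor, and the 5 genes on the right, from Dnajb9 to Xbp1, are highest in spheroids and lowest in tumors.

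Among the folding factors, Hspa5 (BiP, the HSP70 of the ER, which also holds the UPR sensors inactive; chromosome 2, 34771970 to 34777547) differed least between libraries. It had 2421 CPM in monoculture, 2747 CPM in co-culture, 2323 CPM in spheroids and 1858 CPM in tumors. The highest library was 1.48 times the lowest. Its log2 ratio to monoculture was 0.18 (interval 0.175 to 0.189) in co-culture, -0.06 (-0.067 to -0.053) in spheroids and -0.38 (-0.389 to -0.375) in tumors. The ratio in spheroids turned to 0.06 with upper quartiles and to 0.50 with GC content and length removed. Of all genes, 60.7%, 44.3% and 41.5% had a lower ratio in these comparisons. With GC content and length removed, Hspa5 no longer differed least. Its ratio in tumors was then -0.42, while Canx had 0.04 in co-culture, -0.44 in spheroids and -0.26 in tumors.

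Hsp90b1 (GRP94, the HSP90 of the ER, needed for integrins and Toll-like receptors; chromosome 10, 86690209 to 86705509) differed most between the tumor and the spheroid among the folding factors. It had 1995 CPM in monoculture and 2189 CPM in tumors, but 845 CPM in co-culture and 579 CPM in spheroids. The libraries from co-culture with fibroblasts were thus the low ones. The log2 ratio to monoculture was -1.78 (-1.796 to -1.773) in spheroids, 3.45-fold lower, and -1.24 (-1.251 to -1.23) in co-culture, and 9.0% and 9.07% of all genes had a lower ratio. With GC content and length removed, the log2 ratio of spheroid to tumor was -0.999 for Hsp90b1 and 1.17 for Hspa5, which then differed more. Exons of Hsp90b1 share 611 bases with other annotated genes, of which only 1810014B01Rik, on the other strand, was counted, at 4.2 to 9.61 CPM.

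Canx, the membrane-bound lectin chaperone (chromosome 11, 50293961 to 50325673), had 1132 CPM in monoculture, 993 CPM in co-culture, 501 CPM in spheroids and 1112 CPM in tumors. The spheroid was the low library, with a log2 ratio to monoculture of -1.18 (-1.19 to -1.164). Its soluble partner Calr, which binds the same sugars and stores calcium (chromosome 8, 84841850 to 84846934), had 1994 CPM in monoculture, 2665 CPM in co-culture, 1818 CPM in spheroids and 863 CPM in tumors. Here the tumor was the low library, 2.31-fold lower than monoculture. With TMM scaling the lectin chaperones thus separated in opposite libraries, Canx in spheroids and Calr in tumors. With GC content and length removed, their log2 ratios to monoculture were closer in spheroids, -0.44 for Canx and -0.32 for Calr. In tumors they were still apart, at -0.26 and -1.05.

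Pdia4 (ERp72, a disulfide isomerase; chromosome 6, 47796141 to 47813430) had 718 CPM in monoculture, 622 CPM in co-culture, 350 CPM in spheroids and 506 CPM in tumors. Its log2 ratio of spheroid to monoculture was -1.04 (-1.054 to -1.022), just past 2-fold.

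The ratio of a pair of genes inside 1 library needs no scaling between libraries. The genes of a pair differ in GC content and length, which can still enter this ratio. For every 100 Hsp90b1 reads there were 121 Hspa5 reads in monoculture, 325 in co-culture, 401 in spheroids and 84.9 in tumors. For every 100 Canx reads there were 176, 269, 363 and 77.7 Calr reads in the same order of libraries. Both pairs had their highest ratio in spheroids and their lowest in tumors as counted. With GC content and length removed, the log2 ratio to monoculture was -0.32 for Calr and -0.44 for Canx in spheroids. In co-culture these values were 0.32 and 0.04, so Calr then stood highest against Canx in co-culture. Hspa5 and Hsp90b1 had 0.50 and -1.37 in spheroids and 0.28 and -1.11 in co-culture, so this pair kept its highest ratio in spheroids. Herpud1, set against Hsp90b1, went from 3.98 reads per 100 in monoculture and 2.93 in tumors to 24.6 in co-culture and 51.1 in spheroids.

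**Figure D2:**
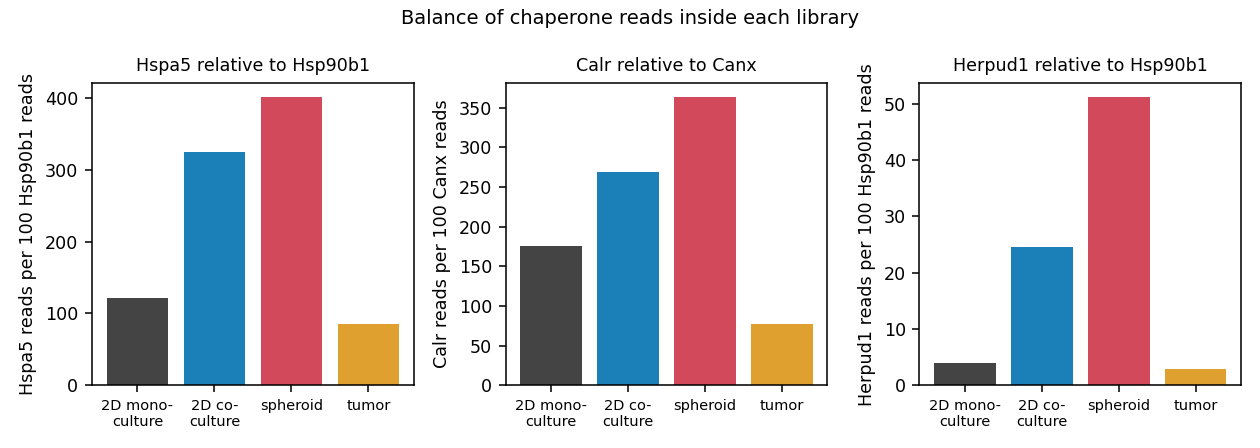
Reads of a gene per 100 reads of another in the same library (y axis, from 0), for Hspa5 to Hsp90b1, Calr to Canx and Herpud1 to Hsp90b1, with 1 bar per library and no replicates. Bars are reads as counted, without removal of GC content or length. In each panel the spheroid has the highest bar and the tumor the lowest, from 401 to 84.9 for Hspa5 per 100 Hsp90b1 reads.

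Of the co-chaperones of BiP, Dnajb9 (ERdj4, a J-domain protein that brings BiP to IRE1; chromosome 12, 44205559 to 44210326) had 64.1 CPM in monoculture, 99.3 CPM in co-culture, 175 CPM in spheroids and 49.3 CPM in tumors. The spheroid was 2.73-fold above monoculture, a log2 ratio of 1.45 (1.415 to 1.485). Sdf2l1, which works with J-domain proteins of the ER (chromosome 16, 17130138 to 17132383), had 219 CPM in monoculture, 420 CPM in co-culture, 467 CPM in spheroids and 112 CPM in tumors. It was nearly as high in co-culture as in spheroids, with a log2 ratio between them of 0.15 (0.135 to 0.169). Set against BiP itself, Dnajb9 had 2.65 reads per 100 Hspa5 reads in monoculture, 3.62 in co-culture, 7.54 in spheroids and 2.66 in tumors. For Sdf2l1 these values were 9.04, 15.3, 20.1 and 6.02. With GC content and length removed, the log2 ratio of spheroid to monoculture was 0.46 for Sdf2l1, 1.58 for Dnajb9 and 0.50 for Hspa5. In co-culture these ratios were 0.61, 0.55 and 0.28. Dnajb9 thus kept its highest level against Hspa5 in spheroids, whereas Sdf2l1 then stood highest against Hspa5 in co-culture.

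Of the genes of ER-associated degradation, Herpud1 (an anchor of the HRD1 ubiquitin ligase complex; chromosome 8, 94386438 to 94395377) differed most between libraries of all 10 genes. It had 79.3 CPM in monoculture, 208 CPM in co-culture, 296 CPM in spheroids and 64.2 CPM in tumors. Both libraries from co-culture with fibroblasts were over 2-fold above monoculture, with log2 ratios of 1.90 (1.87 to 1.93) in spheroids and 1.39 (1.356 to 1.421) in co-culture. Of all genes 94.8% and 94.2% had a lower ratio. Edem1, a lectin that takes misfolded glycoproteins out of the folding cycle (chromosome 6, 108828641 to 108859356), differed less, with 197 CPM in monoculture, 214 CPM in co-culture, 257 CPM in spheroids and 113 CPM in tumors.

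Xbp1, the transcription factor of the IRE1 branch (chromosome 11, 5520659 to 5525893), had 174 CPM in monoculture, 268 CPM in co-culture, 468 CPM in spheroids and 172 CPM in tumors. The tumor and monoculture could not be told apart within counting error, with a log2 ratio of -0.02 (-0.046 to 0.003). The spheroid was 2.68-fold above monoculture and 2.72-fold above the tumor.

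Levels of different genes can be set side by side only per length. In CPM per kilobase of exon, Calr led in the 3 cultures (913 in monoculture, 1220 in co-culture and 832 in spheroids), and Hsp90b1 led in tumors (775, against 395 for Calr). In the spheroid, Sdf2l1 at 421 CPM per kilobase stood above Hsp90b1 at 205, and Xbp1 at 196 and Herpud1 at 152 stood above Pdia4 at 146 and Canx at 117. In monoculture the order was reversed for all of these pairs. The values there were 198 for Sdf2l1, 706 for Hsp90b1, 73.0 for Xbp1, 40.6 for Herpud1, 299 for Pdia4 and 264 for Canx. These levels are without the step that removes GC content and length. With it, log2 ratios of spheroid to monoculture were 0.46 for Sdf2l1, -1.37 for Hsp90b1, 1.08 for Xbp1 and 1.5 for Herpud1. They were -0.80 for Pdia4 and -0.44 for Canx. Set on the monoculture levels, these ratios left Xbp1 and Herpud1 below Pdia4 and Canx in spheroids. Sdf2l1 was then about level with Hsp90b1, so the change of order did not hold with that step. In all, the 10 genes took 0.885% of reads in monoculture, 0.874% in co-culture, 0.656% in spheroids and 0.819% in tumors.

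The comparison of spheroid and monoculture addresses 3D growth together with fibroblasts, which cannot be told apart in it. Per the methods, B16F10 cells were kept in RPMI medium, whereas spheroids were seeded in drops of Dulbecco's modified Eagle medium. The medium of the sequenced monoculture was not stated separately, and a difference in medium or drop culture cannot be told apart either. Of the 10 genes, 4 were over 2-fold higher in spheroids (Herpud1, Dnajb9, Xbp1 and Sdf2l1) and 3 over 2-fold lower (Hsp90b1, Canx and Pdia4). Over all genes 38.0% were past 2-fold, 16.4% higher and 21.6% lower. The median log2 ratio of the 10 genes was 0.16, close to that of all genes at 0.10, with 5 ratios above and 5 below 0. At 1.5-fold the same 4 and 3 genes were counted, against 61.5% of all genes, 31.0% higher and 30.6% lower. Sdf2l1 was within 2-fold with total counts (0.98) and Pdia4 with upper quartiles (-0.92).

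The comparison of co-culture and monoculture addresses growth beside fibroblasts on a flat surface. The methods do not state the medium of this co-culture. Herpud1 was over 2-fold higher and Hsp90b1 over 2-fold lower, 2 of the 10 genes, against 21.0% of all genes past 2-fold, 8.3% higher and 12.7% lower. The median log2 ratio was 0.30 for the 10 genes and 0.02 for all genes. At 1.5-fold, 4 genes were higher (Herpud1, Sdf2l1, Dnajb9 and Xbp1), and 1 lower (Hsp90b1), against 40.1% of all genes, 17.4% higher and 22.7% lower. The fibroblast markers given above were also higher in this library, and their part in these values was not tested.

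Between spheroid and co-culture, none of the 10 genes was past 2-fold, against 25.5% of all genes, 12.4% higher and 13.1% lower. The counting intervals of all 10 left out 0. Canx, with a log2 ratio of -0.99 (-1.001 to -0.973), and Pdia4, with -0.83 (-0.847 to -0.814), were the lowest in spheroids, and Dnajb9 with 0.82 (0.786 to 0.85) and Xbp1 with 0.80 (0.782 to 0.821) the highest. These 4 were past 1.5-fold, against 48.0% of all genes, 22.9% higher and 25.1% lower.

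**Figure D3:**
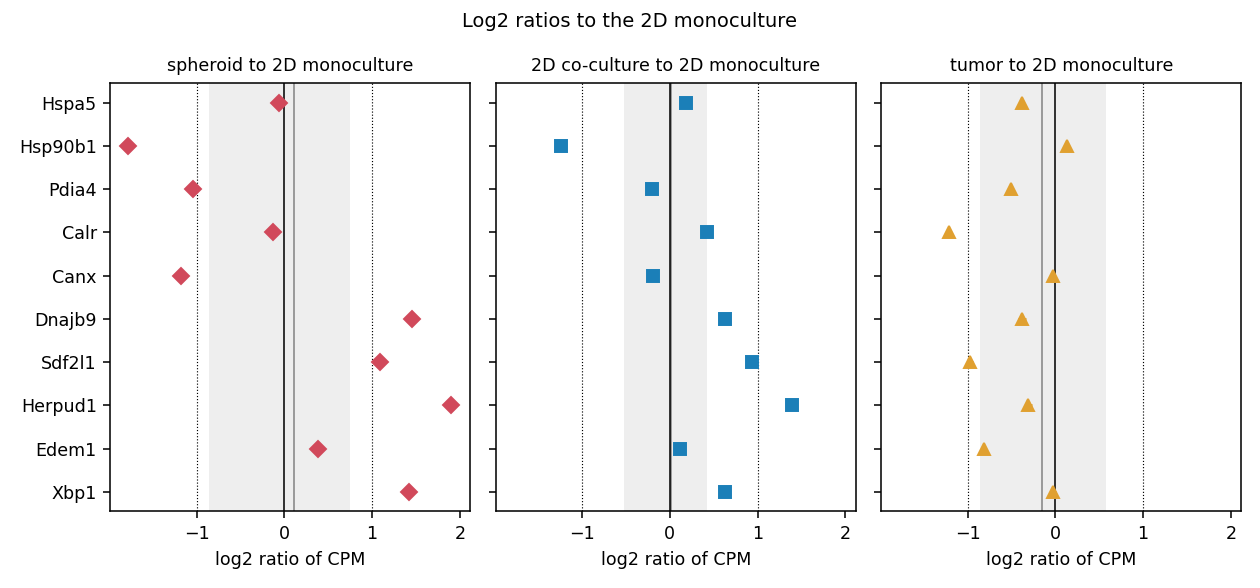
Log2 ratio of CPM to monoculture (x axis) of the 10 genes in spheroids, co-culture and the tumor, with 95% counting intervals smaller than the points. Dotted lines mark 2-fold, the grey band the middle 50% of all 12728 genes and the grey line their median. In the spheroid 7 of the 10 genes lie beyond the dotted lines, in tumors only Calr does.

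Between tumor and monoculture, Calr was the only gene past 2-fold, with a log2 ratio of -1.21 (-1.217 to -1.198), against 36.8% of all genes, 16.5% higher and 20.3% lower. Sdf2l1 followed with -0.97 (-0.996 to -0.943) and Edem1 with -0.81 (-0.838 to -0.785). These 3 were past 1.5-fold, all lower, against 58.3% of all genes, 24.4% higher and 33.9% lower. Of the 10 genes 9 had a ratio under 0, as had 55.4% of all genes, with a median of -0.38, while the median of all genes was -0.15. The ratios of Canx (-0.03) and Xbp1 (-0.02) were above 0 with the 4 other scalings run, at most 0.225 for Canx and 0.23 for Xbp1, both with upper quartiles, and Calr was within 2-fold with total counts (-0.97) and upper quartiles (-0.96). The ratio of Hsp90b1 was 0.13 (0.126 to 0.141), and -0.20 with GC content and length removed. The host cell markers given above were higher in the tumor library, and their part in these values was not tested.

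Between spheroid and tumor a set of 6 genes was over 2-fold higher in spheroids (Herpud1, Sdf2l1, Dnajb9, Xbp1, Edem1 and Calr) and 2 over 2-fold lower (Hsp90b1 and Canx). Of all genes 57.6% were past 2-fold, 28.4% higher and 29.2% lower. The same 8 genes were past 1.5-fold, against 74.6% of all genes, 38.1% higher and 36.4% lower. Herpud1 was 4.61-fold and Sdf2l1 4.18-fold higher in spheroids, and Hsp90b1 was 3.78-fold lower. The ratio of Hspa5 was 0.32 (0.315 to 0.329) against -0.04 with total counts. The median log2 ratio was 1.13 for the 10 genes and 0.08 for all genes. This comparison and that of tumor and monoculture share the tumor library, and the comparisons with monoculture share that library.

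Log2 ratios went with base composition and length across genes. Over 12672 genes Spearman's correlation of the ratio of spheroid to monoculture was 0.428 with GC content and -0.384 with exon length. For spheroid to tumor it was 0.52 and -0.138. The genes share their libraries, so these values are descriptions, and the part of GC content and length in the ratios of the 10 genes was not tested. The GC content of the 10 genes went from 40.6% (Dnajb9), 42.1% (Hsp90b1) and 42.2% (Canx) to 53.0% (Xbp1 and Herpud1) and 56.7% (Sdf2l1), and exon length from 1108 bases (Sdf2l1) to 5817 bases (Edem1). After the median ratio of genes in the same class of GC content and length was removed, the ratio of spheroid to monoculture was 1.5 for Herpud1, 1.58 for Dnajb9, 1.08 for Xbp1 and -1.37 for Hsp90b1, which kept their side of 2-fold. It was 0.46 for Sdf2l1, -0.80 for Pdia4 and -0.44 for Canx, which did not, and 1.10 for Edem1, which was then past 2-fold. For spheroid to tumor, Canx came to 0.00 and Hsp90b1 to -0.999, so that no gene was over 2-fold lower, Xbp1 came to 0.95 and Calr to 0.89, and Hspa5, at 1.17, was past 2-fold. Of the genes with the lowest GC content, Dnajb9 was higher in spheroids than in monoculture with and without this step. Hsp90b1 and Canx were lower with and without it.

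**Figure D4:**
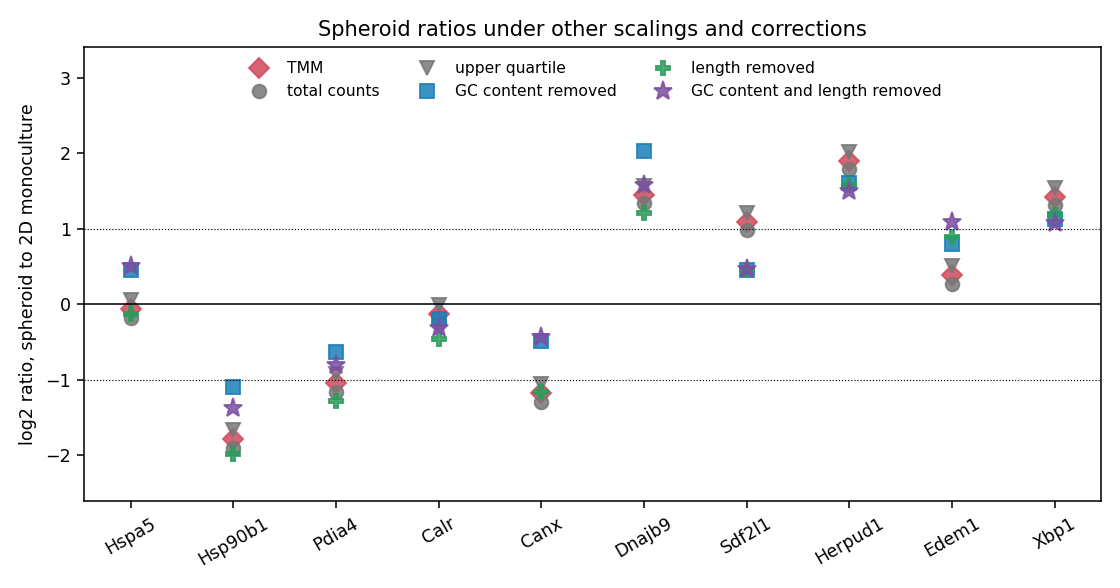
Log2 ratio of spheroid to monoculture (y axis) of the 10 genes with TMM scaling, with total counts and upper quartiles, and after medians of GC classes, length classes or both were removed, 1 point per setting. Dotted lines mark 2-fold. Herpud1, Dnajb9, Xbp1 and Hsp90b1 stay past 2-fold in the settings drawn, while Sdf2l1 comes within it with total counts and with GC content or length removed, Pdia4 with upper quartiles and with GC content removed, and Canx with GC content removed.

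The other genes of the pathway were taken from lists by role, which were also chosen with earlier results of these data known. They held 102 genes, of which 101 reached a mean of 1 CPM. In the spheroid 14 were over 2-fold higher and 10 over 2-fold lower than in monoculture, with a median log2 ratio of 0.44, against 16.4% and 21.6% of all genes. In the tumor 2 were over 2-fold higher and 26 lower, with a median of -0.47, against 16.5% and 20.3% of all genes.

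The targets and partners of PERK and ATF4 had the median farthest from 0 of the 8 lists in both spheroids and tumors. All 7 were higher in spheroids than in monoculture, 5 of them over 2-fold, and all 7 were lower in tumors, 6 of them over 2-fold. Of all genes 53.7% were higher in spheroids, 16.4% over 2-fold, and 55.4% were lower in tumors, 20.3% over 2-fold. Trib3, a pseudokinase induced by ATF4, had 191 CPM in monoculture, 163 CPM in co-culture, 1279 CPM in spheroids and 34.5 CPM in tumors. Ddit3 (CHOP) had 168, 141, 499 and 58.9 CPM in these libraries, Ppp1r15a (GADD34, which restores translation) 171, 148, 700 and 18.2 CPM, Chac1, which degrades glutathione, 82.0, 74.5, 335 and 22.6 CPM, and Atf4 itself 671, 1229, 2713 and 407 CPM. Sesn2 had 103, 77.4, 186 and 14.6 CPM, and Atf3 173, 30.3, 195 and 21.7 CPM. In co-culture Atf4 was thus above monoculture while the other 6 were below it, whereas Herpud1 and Sdf2l1 were higher. With GC content and length removed, 5 of 7 were still over 2-fold higher in spheroids and 6 of 7 over 2-fold lower in tumors, against 13.3% and 7.58% of all genes.

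The sensors come from a list of 10 genes, of which 1 was over 2-fold higher in spheroids and 4 over 2-fold lower in tumors than in monoculture, against 16.4% and 20.3% of all genes. With GC content and length removed these counts were 2 and 2, against 13.3% and 7.58% of all genes. Ern1, which encodes IRE1, had 54.7 CPM in monoculture, 27.0 CPM in co-culture, 41.4 CPM in spheroids and 10.8 CPM in tumors. Eif2ak3, which encodes PERK, had 43.9, 38.8, 41.7 and 28.4 CPM, and Atf6 125, 55.5, 68.6 and 123 CPM. Atf6b, the relative of Atf6, had 148, 207, 223 and 50.9 CPM. The proteases that cut ATF6, Mbtps1 and Mbtps2, had log2 ratios of spheroid to monoculture of -0.65 and 0.03. Rtcb, the ligase that joins the cut Xbp1 mRNA, stayed between 169 and 233 CPM. Creb3 and Creb3l2, related factors of the ER membrane, had ratios of -0.22 and 0.95 in spheroids. Wfs1, a membrane protein of the ER, was the gene over 2-fold higher in spheroids, at 181 CPM against 75.5 CPM in monoculture and 12.6 CPM in tumors.

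Among 16 other ER chaperones and co-chaperones, 2 were over 2-fold higher in spheroids and 3 lower, against 16.4% and 21.6% of all genes. With GC content and length removed these counts were 2 and 1, against 13.3% and 14.5% of all genes. Manf, a secreted UPR product, had 291 CPM in monoculture, 875 CPM in co-culture, 868 CPM in spheroids and 375 CPM in tumors. Hyou1, the large relative of HSP70 in the ER, had its lowest level in tumors, 189 CPM against 559 CPM in monoculture, as did Dnajb11. The J-domain proteins divided: Dnajc10 had 147 CPM in monoculture and 27.5 CPM in spheroids, and Dnajc3 181 and 52.7 CPM, whereas Dnajb9 was higher in spheroids. Fkbp7, a prolyl isomerase, had the highest ratio of tumor to monoculture, 1.38.

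Of 14 disulfide isomerases and oxidases, 1 was over 2-fold higher in spheroids (Txndc11, log2 ratio 1.07) and 1 over 2-fold lower (Pdia3, -1.12). The shares of all genes were 16.4% and 21.6%. With GC content and length removed the counts were 3 and 1, against 13.3% and 14.5% of all genes. The median was 0.36, and 9 of the 14 were above monoculture in spheroids, against 53.7% of all genes. Txndc5 (0.54) was among the 9, while P4hb had -0.96 and Pdia6 -0.60. In the tumor 1 gene of this list was past 2-fold, Txndc11 with -1.07, against 36.8% of all genes. Tmx3 was the highest with 0.69. Of 8 genes of the calnexin and calreticulin cycle, 1 was over 2-fold higher and 2 lower in spheroids, against 16.4% and 21.6% of all genes. With GC content and length removed none of the 8 was past 2-fold, and their median went from 0.25 to -0.06. Uggt1, which tests the fold of glycoproteins and sends them back to calnexin, had 294 CPM in monoculture, 104 CPM in co-culture, 59.6 CPM in spheroids and 175 CPM in tumors. Mogs, the glucosidase that starts sugar trimming, had the opposite order of cultures, with 176, 276 and 421 CPM, and 98.5 CPM in tumors. Among the genes of this list whose mean reached 10 CPM, Prkcsh, a glucosidase subunit, was the lowest in tumors (-1.92) and Lman1 the highest (-0.17), and below that limit Uggt2 had 0.69.

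Of 22 measured genes of ER-associated degradation, 18 were above monoculture in spheroids, though Os9 (0.01), Faf2 (0.06), Rnf139 (0.08) and Nploc4 (0.11) were near 0 and 53.7% of all genes were above it. Of the 22, only Rnf5 was over 2-fold higher (1.08), while Vcp, the ATPase that pulls substrates out of the membrane, was lower (-1.73), as was Edem3. The shares of all genes were 16.4% higher and 21.6% lower. In the tumor 10 of the 22 were over 2-fold lower than in monoculture and none higher, against 20.3% of all genes lower. The lowest was Nploc4, a cofactor of Vcp (-1.93), and the highest Rnf139 (0.44). With GC content and length removed, 4 of the 22 were over 2-fold lower in tumors, against 7.58% of all genes. Derl3 did not reach a mean of 1 CPM. Translocation genes (15) had a median log2 ratio to monoculture of 0.47 in spheroids and 0.61 in co-culture, from Sec63 (-1.44) to Ssr2 (1.05) in spheroids and from Srprb (-1.25) to Spcs3 (0.89) in tumors. N-glycosylation genes (9) had 0.24 and 0.38, from Magt1 (-1.19) to Ostc (1.25) in spheroids and from Rpn2 (-0.998) to Ostc (1.04) in tumors.

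**Figure D5:**
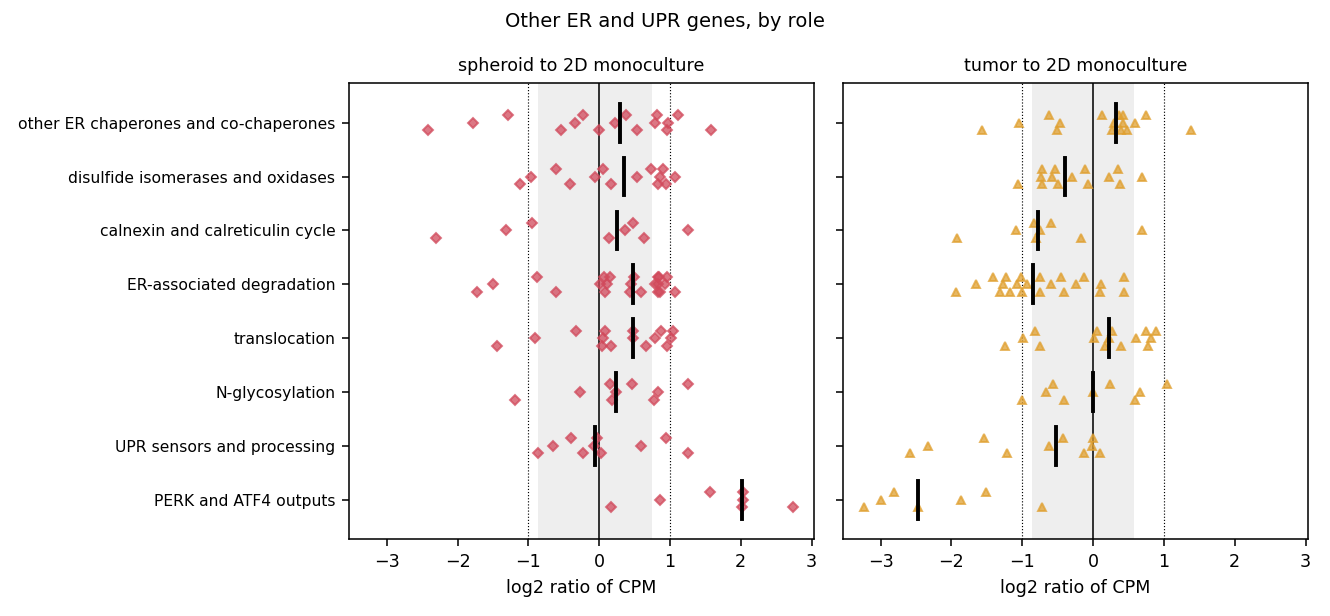
Log2 ratio of CPM (x axis) of spheroid and of tumor to monoculture for the genes of 8 role lists, 1 point per gene, with the median of a list as a black bar, 2-fold as dotted lines and the middle 50% of all 12728 genes as a grey band. Targets and partners of PERK and ATF4 lie to the right in spheroids and to the left in tumors, with medians of 2.01 and -2.47, and genes of ER-associated degradation have medians of 0.47 and -0.84.

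Genes that carry the ER stress response element outside the 10 had ratios in both directions. Of 37 genes with an exact match in a window, 18 were among the 12728 genes, 14 of them outside the 10. The median log2 ratio of spheroid to monoculture of these 14 was 0.03, against 0.10 for all genes. Of the 14, 0 were over 2-fold higher and 2 lower, against 16.4% and 21.6% of all genes. Syvn1, the HRD1 ubiquitin ligase, had 0.94, Pdia6 -0.60, Creld2 -0.34 and Dnajc3 -1.78.

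The genes whose profile over the 4 libraries came nearest to the mean profile of the 10 were Urm1, Arpc1b, Atp5b, Agfg2 and Atf1, with Euclidean distances of centred log2 CPM from 0.02 to 0.06. The members themselves lay 0.25 (Hspa5) to 2.11 (Hsp90b1) from that mean, and of 9562 other genes whose mean reached 10 CPM 2.54% lay as near to it as Hspa5 and 87.2% as near as Hsp90b1.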

How the data were processed

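RNA of 4 libraries was enriched with oligo(dT) beads, made into libraries with the NEBNext Ultra II RNA kit and sequenced as paired ends. The submitters' processing notes name Trimmomatic, STAR, featureCounts and mm10, and their versions, the strand setting and the annotation release were not given in the sources used here. The authors deposited whole-number read counts per refGene symbol, without normalization. These counts were scaled to CPM by TMM (edgeR 4.0.16, R 4.3.3), and size factors of DESeq2 1.42.0 were an alternative. Python 3.11.15, numpy 2.4.6, pandas 2.3.3, scipy 1.17.1 and matplotlib 3.10.9 were used. Totals lay between 118896900 and 150028663 reads, and 3 reads, the limit that a count of 0 allows, were 0.0185 to 0.0262 CPM. Reads without molecular identifiers are not independent molecules, so exact binomial (Clopper-Pearson) intervals cover counting error only. Ratios of single genes and medians used no pseudocount. The ratio step was tested on simulated data. Exon lengths, GC content and gene positions came from GENCODE M21 (GRCm38), with a value for 99.6% of the genes tested, in 10 classes each. Genes at 0 in either library were left out of that correction.

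The 10 genes and all lists were chosen with earlier results of these data known. The genes named are the 10, the sensors, the PERK and ATF4 list, in each other list the highest and lowest ratio of spheroid and of tumor to 2D monoculture where the mean reached 10 CPM, and the 5 nearest profiles. The other list genes with values (P4hb, Pdia6, Dnajc3, Dnajb11, Edem3, Syvn1, Creld2, Derl3, Os9, Faf2, Txndc5, Uggt2) were added after their values were seen. No test was made, since each condition has 1 library.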

Additional observations from a re-analysis of the deposited data

How the results depend on the processing

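No paired analysis was possible because replicates are lacking, and for the same reason leaving out a library was not possible. Values are given in the order spheroid, 2D co-culture and tumor to 2D monoculture, then spheroid to 2D co-culture and spheroid to tumor. The median log2 ratio of the 10 genes was 0.16, 0.30, -0.38, -0.05 and 1.13. It moved to 0.20, 0.33, -0.33 with DESeq2 size factors in the comparisons with the 2D monoculture, to 0.045, 0.27, -0.14, -0.13 and 0.78 with total counts, to 0.28, 0.42, -0.13 and, for spheroid to tumor, 1.003 with upper quartiles, to 0.29 (2D co-culture), -0.25 (tumor) and 0.999 (spheroid to tumor) with filtered TMM factors, and to 0.48, 0.40, -0.41, 0.041 and 1.06 with GC content and length removed. Chosen after seeing the data, removing GC content alone gave 0.46, 0.35 and, for spheroid to tumor, 0.86, and removing length alone gave 0.33 (2D co-culture), -0.18 (tumor), -0.11 (spheroid to 2D co-culture) and 0.92 (spheroid to tumor). TMM factors of the 3 cultures alone, also added later, and 1 CPM added changed no median beyond counting error. Total counts moved the median of all genes from 0.08 to -0.28 for spheroid to tumor and from -0.15 to 0.09 for tumor to 2D monoculture, which by construction moves all ratios alike. The number of genes past 2-fold was 7, 2, 1, 0 and 8. For both spheroid to 2D monoculture and spheroid to tumor it was 4 with GC content removed, 5 with GC content and length removed and 6 with total counts. With GC content and length removed, the 4 higher and 3 lower genes of spheroid to 2D monoculture became 4 and 1. For tumor to 2D monoculture it was 0 with total counts, upper quartiles or GC content removed, 2 with GC content and length or length alone removed and 3 at 1.5-fold. For spheroid to 2D co-culture it was 1 with total counts, GC content removed or GC content and length removed and 4 at 1.5-fold, and for 2D co-culture to 2D monoculture 5 at 1.5-fold. The cause of these moves was not tested, except that a lower fold counts more genes. Over all settings run, 5, 8, 3, 6 and 3 of the 10 genes kept both their direction and their side of 2-fold. Depth limits none of the 10 genes, which had at least 8010 reads.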
